A study of Mus musculus with 12 samples.

Results

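The major urinary proteins (MUPs) of the mouse liver were followed through 10 genes, Mup1, Mup2, Mup3, Mup7, Mup10, Mup11, Mup17, Mup19, Mup20 and Mup21. They were taken by symbol from the 25033 entries of the Ribo-seq table, in which all 10 were present and all 10 passed the filter on low reads. The family was selected on measured values, since Mup2 had the highest RPKM (reads per kilobase of gene, scaled to the size of the library) of the LYC libraries once small non-coding RNA genes were set aside. The differences of these genes between LYC and HFD are therefore given as a description, with no p-value. The table held 12 other genes with a Mup number, and the 5 of them that passed the filter are described further on.

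Ribosome footprints, the stretches of mRNA covered by translating ribosomes, were sequenced from livers of male C57BL/6 mice aged 16 weeks, with 3 libraries per group. The HFD group had received a high-fat diet for 8 weeks from 8 weeks of age. The LYC group had received the same high-fat diet with lycopene, a carotenoid of tomato, for the same time. The lycopene is taken from the sample titles and the study's methods, because the label that gives their treatment mentions the high-fat diet alone. Both groups were thus on a high-fat diet, and no library from mice on standard feed was analysed here. A second table of 6 libraries, 3 per group, was labelled RNA-seq.

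MUPs are small secreted lipocalins, barrel-shaped proteins that hold a hydrophobic ligand in a central pocket. Hepatocytes of adult male mice make them in large amounts, the kidney passes them into the urine, and there they bind pheromones, release them slowly and carry information on the identity of the animal. Their genes lie side by side on chromosome 4 as a tandem cluster, and their transcription in the liver is known to depend on pulses of growth hormone acting through STAT5, as well as on glucocorticoids and androgens. Mup20 encodes darcin, a MUP of male urine that attracts females.

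The RefSeq annotation of GRCm38 placed all 22 Mup genes of the table on chromosome 4, between positions 59956804 and 62150841, and all except Mup6 on the minus strand. The coding sequences of Mup1, Mup7, Mup10, Mup11, Mup17 and Mup19 were 98.7% to 99.5% identical to that of Mup2. Together with Mup2 these 6 genes are called the 7 genes near Mup2 here, and with 9 of the other Mup genes they made up a group of 16 genes at 98% identity or more. The remaining members stood apart, Mup20 with 90.8%, Mup21 with 84.2% and Mup3 with 82.7% identity to Mup2. Mup3 and Mup21 were closest to each other, with 94.8% identity.

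A stretch of 60 coding bases near the start of the gene shows what a footprint can and cannot tell apart. Capitals mark the bases that differ from Mup2, each sequence reads 5′ to 3′ on the minus strand of GRCm38, and all come from RefSeq transcripts placed on the genome. Mup10, Mup11 and Mup17 carry the stretch exactly as Mup2 does, so their lines are left out, and 7 of the 22 Mup transcripts hold it in this form.
Mup2 (chr4:60139715-60139774): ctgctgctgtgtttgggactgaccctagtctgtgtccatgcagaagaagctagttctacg
Mup1 (chr4:60501778-60501837): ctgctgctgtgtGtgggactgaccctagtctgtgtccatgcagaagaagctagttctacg
Mup7 (chr4:60070229-60070288): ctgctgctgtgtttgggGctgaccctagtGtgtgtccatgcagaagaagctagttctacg
Mup19 (chr4:61782087-61782146): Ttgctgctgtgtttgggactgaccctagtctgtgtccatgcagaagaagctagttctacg
Mup20 (chr4:62053975-62054034): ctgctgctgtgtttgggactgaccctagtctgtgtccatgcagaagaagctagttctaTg
Mup3 (chr4:62087148-62087207): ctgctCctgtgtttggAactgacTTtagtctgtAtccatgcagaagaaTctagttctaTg
Mup21 (chr4:62150678-62150737): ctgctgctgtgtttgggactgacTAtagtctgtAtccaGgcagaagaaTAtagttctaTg

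Further into the coding sequence the members that stand apart differ at many more positions. The next stretch of 60 bases is the one in which Mup20 differs most from Mup2, by 11 bases. Mup10 is identical to Mup2 there, as are 12 of the 22 transcripts with Mup2 and Mup10 included, while Mup3 and Mup21 share a sequence that differs from Mup2 by 13 bases.
Mup2 (chr4:60139263-60139322): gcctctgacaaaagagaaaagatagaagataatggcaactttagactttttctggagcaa
Mup20 (chr4:62053524-62053583): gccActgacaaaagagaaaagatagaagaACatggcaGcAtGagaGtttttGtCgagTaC
Mup3 (chr4:62086844-62086903): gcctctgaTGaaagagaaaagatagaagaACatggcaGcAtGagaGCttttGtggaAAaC

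All coding sequences of the 22 genes were cut into overlapping windows of 30 bases, about the length of a footprint, and each window was looked up in the transcripts of all other Mup genes. Of the 514 windows of Mup2, 0 were its own. Mup11 and Mup19 also had 0% own windows, and the share was 1.95% for Mup10, 2.53% for Mup1, and 5.84% for both Mup7 and Mup17. By contrast, 58.2% of the windows of Mup3, 61.9% of those of Mup21 and 63.1% of those of Mup20 were found in no other Mup transcript. No 2 of the 22 genes shared a whole coding sequence. Within these 22 genes, more than 1 in 2 coding windows of Mup3, Mup20 and Mup21 could thus place a read of 30 bases. For the 7 genes near Mup2 hardly any could. Other genes, pseudogenes and the rest of the genome were not searched. The sources used here do not state how reads that match several genes were assigned.

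Liver identity and depth of the libraries were checked before the MUPs were compared. The 6 Ribo-seq libraries held 311050 to 4405541 reads, recovered from the steps between RPKM values, and all 3 LYC libraries (311050 to 412116) were shallower than the HFD libraries (834410 to 4405541). All 9 hepatocyte markers passed the filter, and their summed RPKM as deposited was 47542 to 50786 in HFD and 32814 to 42027 in LYC. After TMM scaling, a correction for differences in library composition, the sums overlapped, at 40200.3 to 47349 and 32600.3 to 45591. The filter was passed by 9 of 11 Kupffer cell and macrophage markers (summed RPKM of 194 to 257 in HFD and 149.9 to 230.4 in LYC), 6 of 7 endothelial (74.6 to 103 and 27.2 to 132), 5 of 9 stellate cell (91.6 to 171 and 81.3 to 129) and 3 of 5 erythroid markers (632 to 1433 and 847 to 989). It was passed by 0 of 5 cholangiocyte, 0 of 5 lymphocyte and 0 of 4 adipocyte markers. Cholangiocyte markers summed to 15.36 to 25.03 RPKM in HFD and 2.89 to 9.25 in LYC. Lymphocyte markers summed to 3.57 to 4.31 and 0.612 to 2.77. Both were lower in LYC without overlap, also after TMM scaling, whereas adipocyte markers overlapped (1.92 to 4.70 and 0 to 25.38). Reads were few in LYC, as the cholangiocyte marker Spp1 had 1, 4 and 3. The part of these cells in the MUP values was not tested. Reads recovered on single genes numbered 277777 to 4081315 per library and are the basis of all shares of Ribo-seq reads given here. Small non-coding RNA genes took 2.49% to 3.98% of them in HFD and 8.47% to 13.01% in LYC. The table labelled RNA-seq followed the Ribo-seq libraries closely. Over 5396 genes other than Mup genes, the deviations of each of its libraries from the group mean correlated with those of exactly 1 Ribo-seq library of the same group at Pearson's r of 0.957 to 0.983, and with the others at −0.382 or lower. Deviations from the mean of 3 libraries sum to 0 for each gene, so the negative values follow from the match to 1 library and add nothing to it. These correlations run across genes and libraries that share a tissue and, by title, the sample codes, and they carry no p-value. Its HFD1, HFD2 and HFD3 matched the Ribo-seq libraries HFD2, HFD3 and HFD1, which goes against the labels, while LYC1, LYC2 and LYC3 matched the libraries of the same name. The order within a group does not alter a comparison of the groups. The second table is used here as another division of reads over the MUP genes and not as separate evidence.

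MUP footprints were among the most abundant of the liver in both groups. The RPKM of the 10 genes summed to 71627, 26190 and 40196 in HFD1, HFD2 and HFD3, and to 170244, 101571 and 91331 in LYC1, LYC2 and LYC3. Every LYC library lay above every HFD library. The means were 46004 ± 23268 (SD, n = 3) in HFD and 121049 ± 42911 (SD, n = 3) in LYC, a 2.63-fold difference as deposited. On the log2 scale this is 1.40, and after TMM scaling the difference was 1.68. As a share of the recovered reads outside small non-coding RNA genes, the 10 genes took 7.86%, 2.62% and 4.57% in HFD and 19.9%, 11.1% and 10.6% in LYC. Because whole livers were sampled, a change in the share of hepatocytes and a change in MUP footprints per hepatocyte cannot be told apart from the MUP values alone. Without Mup2 the log2 difference of the sum was 0.63 and the groups overlapped, whereas in the table labelled RNA-seq, described further on, it was 1.47 without overlap after TMM scaling.

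**Figure D1:**
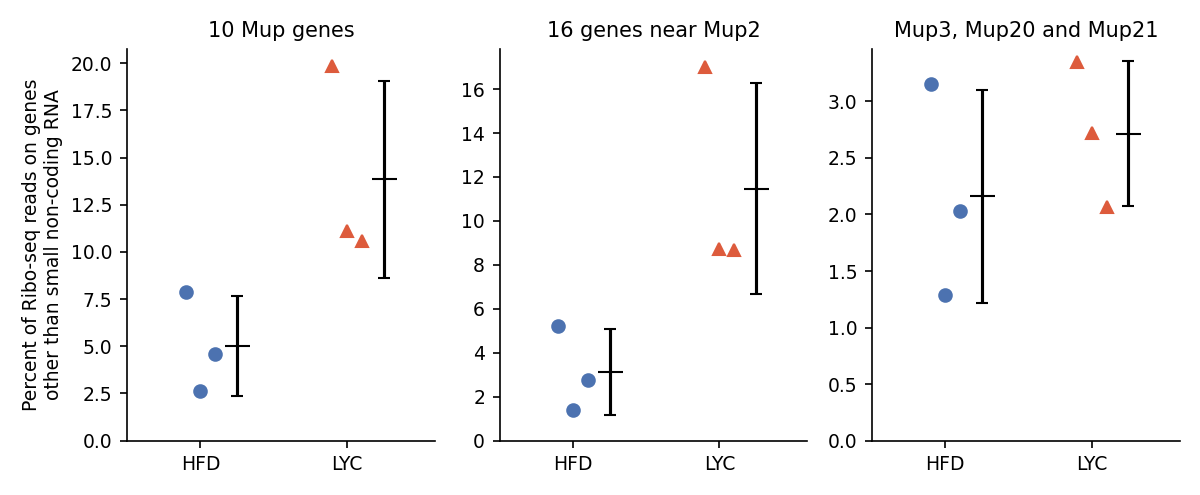
Percent of the recovered Ribo-seq reads outside small non-coding RNA genes (y axes, each from 0) that fell on the 10 MUP genes, on the 16 Mup genes near Mup2, and on Mup3, Mup20 and Mup21 together. Points are libraries of HFD (circles) and LYC (triangles), bars give mean ± SD of 3 libraries. LYC lies above HFD without overlap for the first 2 sums, and the groups overlap for the third.

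Reads were next summed by sequence group, which avoids dividing them among near-identical genes, although the split between the groups also differed between the tables, as given below. The 16 genes near Mup2 took 5.21%, 1.38% and 2.77% of the reads in HFD and 17.02%, 8.71% and 8.68% in LYC. The groups did not overlap, and the means were 3.12% ± 1.94 and 11.5% ± 4.81 (SD, n = 3). Mup3, Mup20 and Mup21 together took 3.16%, 1.29% and 2.03% in HFD and, in LYC, 3.35%, 2.72% and 2.07%. These values overlapped, with means of 2.16% ± 0.939 and 2.71% ± 0.642 (SD, n = 3).

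Mup2 itself had 29644, 8194 and 14532 RPKM in HFD and 122382, 69108 and 62368 RPKM in LYC. Its lowest LYC library was thus above its highest HFD library. It ranked 1, 5 and 4 among genes other than small non-coding RNA in HFD1, HFD2 and HFD3, and 1 in every LYC library. The means were 17457 ± 11020 and 84620 ± 32877 (SD, n = 3), and the log2 fold change fitted by limma on log2(RPKM + 1) after TMM scaling was 2.70 ± 0.62 (SE). Within the 10 genes, Mup2 held 41.9%, 31.7% and 36.6% of the reads in HFD and 72.6%, 68.8% and 69.1% in LYC. These values chose the family and are not support for anything further.

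Among the members with sequence of their own, Mup21 differed most. Mup21 had 1769, 843 and 967 RPKM in HFD and 6423, 4356 and 4766 RPKM in LYC, without overlap. The fitted log2 fold change was 2.46 ± 0.40 (SE). Mup3 had 3044, 2279 and 2215 RPKM in HFD and 5186, 3780 and 4010 RPKM in LYC. The groups did not overlap either, at a smaller log2 fold change of 1.07 ± 0.33 (SE). Darcin's gene Mup20 had 24239, 9868 and 14832 RPKM in HFD and 18063, 17345 and 9720 RPKM in LYC. The groups overlapped, with HFD1 above every LYC library, and the log2 fold change was 0.21 ± 0.49 (SE). The direction turned with RPKM as deposited (−0.07), with the gene length trend removed (−0.17), without HFD2 (−0.25) and without LYC1 (−0.04). Mup20 thus held 33.6%, 37.4% and 36.6% of the reads of the 10 genes in HFD, but 10.5%, 16.9% and 10.5% in LYC, next to a larger sum.

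The 6 members near Mup2 were spread over a wide range of levels in spite of their sequence. Mup10 was by far the most abundant of them, with 10366, 4357 and 6238 RPKM in HFD and 15857, 5817 and 9601 RPKM in LYC, overlapping, and a log2 fold change of 0.84 ± 0.54 (SE), which ranged from 0.38 without LYC1 to 1.28 without LYC2. Mup19 had 1460, 278 and 646 RPKM in HFD and 918, 648 and 348 RPKM in LYC, which overlapped at a log2 fold change of 0.17 ± 0.65 (SE) that ran from −0.58 without HFD2 to 0.79 without HFD1. Mup11 varied least within each group, at 441, 274 and 409 RPKM in HFD and 488, 264 and 236 RPKM in LYC, with a log2 fold change of 0.06 ± 0.40 (SE) that ran from −0.36 without LYC1 to 0.26 without LYC2. With RPKM as deposited Mup19 and Mup11 were both negative, at −0.11 and −0.23.

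Mup1, Mup7 and Mup17 were the lowest members. Mup1 had 281, 46.0 and 169 RPKM in HFD and 149, 56.5 and 42.7 RPKM in LYC, and had a negative log2 fold change, at −0.57 ± 0.75 (SE), which became 0.00 without HFD1. Mup7 had 223, 24.9 and 131 RPKM in HFD and 447, 90.7 and 154 RPKM in LYC, with a log2 fold change of 1.30 ± 0.89 (SE). For Mup17 the values were 160, 25.1 and 58.2 RPKM in HFD and 329, 105 and 84.9 RPKM in LYC, with a log2 fold change of 1.48 ± 0.76 (SE). All 3 overlapped between groups. Without HFD2 the log2 fold change of Mup7 was 0.25 and that of Mup17 0.70, and without HFD1 they were 1.97 and 2.18. Read numbers were low for these genes, as Mup1 rested on 17 reads in each of LYC2 and LYC3 and on 57 in LYC1.

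**Figure D2:**
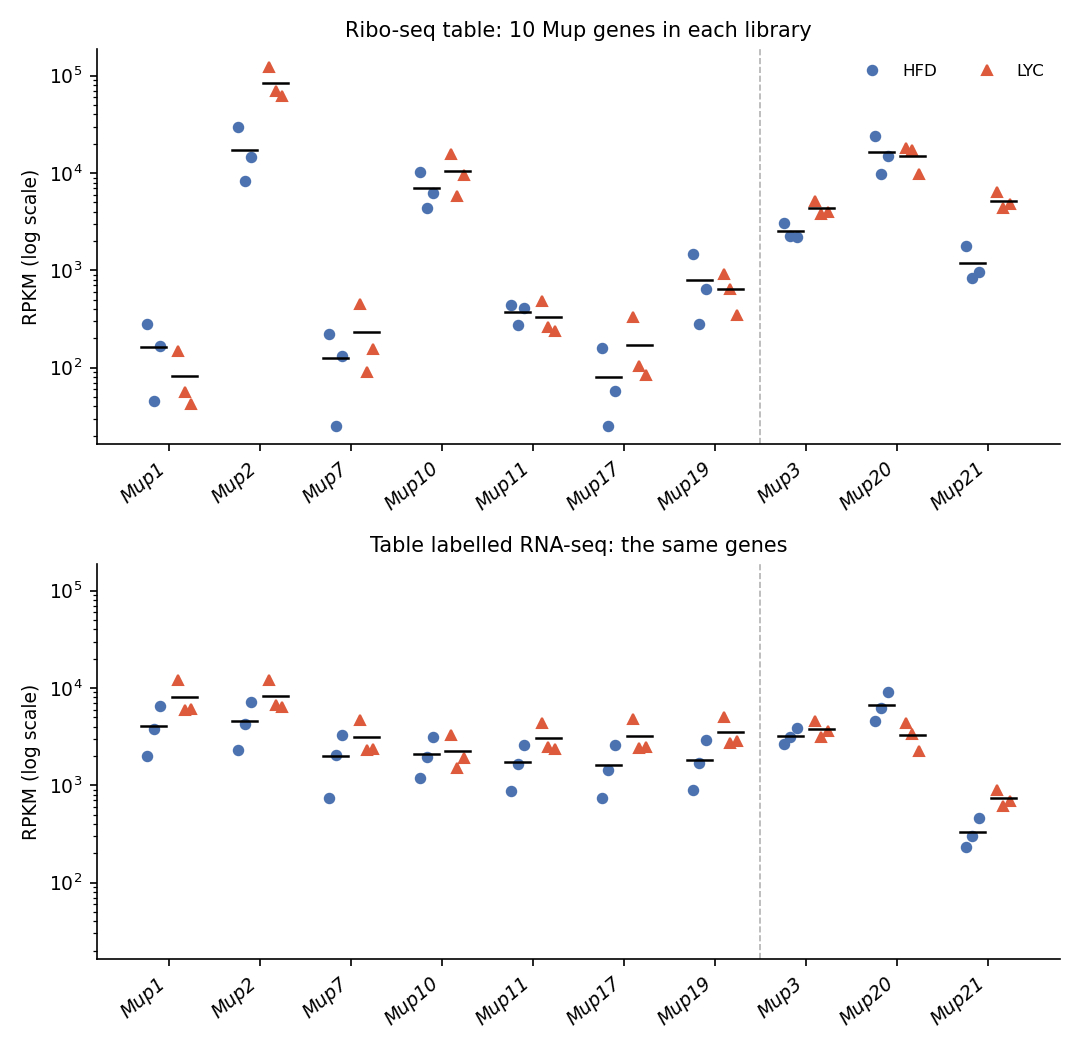
RPKM on a log axis of the 10 MUP genes in the Ribo-seq table (top) and in the table labelled RNA-seq (bottom). Each point is a library of HFD (circles) or LYC (triangles), short lines are group means, and the dashed line separates the 7 genes near Mup2 (left) from Mup3, Mup20 and Mup21. In the top panel the HFD means of the genes near Mup2 run from 81.2 to 17457 RPKM, in the bottom panel from 1602 to 4557 RPKM.

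In order of mean RPKM the HFD libraries gave Mup2, Mup20, Mup10, Mup3, Mup21, Mup19, Mup11, Mup1, Mup7 and Mup17. Of these neighbours, only Mup10 and Mup3 and then Mup3 and Mup21 had ranges that did not touch. Mup2 was above Mup20 in just 1 of the 3 HFD libraries. In LYC the order was Mup2, Mup20, Mup10, Mup21, Mup3, Mup19, Mup11, Mup7, Mup17 and Mup1, and the ranges were apart between Mup2 and Mup20 and between Mup3 and Mup19. RPKM is scaled by gene length, but for the 7 genes near Mup2 the order also rests on how shared reads were assigned, and the second table ordered and spaced them differently.

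The members shared their highest library, but not their lowest, within each group. HFD1 had the highest RPKM of the HFD group for 10 of 10 members, and HFD2 the lowest for 9 of 10, Mup3 being the exception, or for 10 of 10 after TMM scaling. LYC1 was the highest of its group for 10 of 10, whereas the lowest was LYC3 for 6 and LYC2 for 4. Over all genes tested HFD1 was highest for 17.6%, HFD2 lowest for 11.3% and LYC1 highest for 20.4%, and after TMM scaling for 33.3%, 31.4% and 32.1%. Within HFD the highest library exceeded the lowest by 8.93-fold for Mup7, 6.38-fold for Mup17 and 6.10-fold for Mup1, against 1.37-fold for Mup3 and 1.61-fold for Mup11.

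Read against all genes, the call limits (log2 fold change beyond 1 in either direction, with p below 0.01 before adjustment) were passed by 3 of 10 members in the higher direction, Mup2, Mup3 and Mup21, where 6.89% of the 5758 genes tested were called higher and 6.37% called lower. The same 3 members were higher in LYC without overlap after TMM scaling, where 18.5% of all tested genes did so and 19.2% were lower without overlap. The median log2 fold change was 0.96 over the 10 members and −0.10 over all genes tested. Since this contrast chose the family, nothing is read from these counts. Without LYC1, Mup2 had a log2 fold change of 2.30 and Mup3 one of 0.84, and neither passed the limits. Mup3 likewise missed them without HFD2 (0.86), without HFD3 (1.01) or without LYC3 (1.12), with RPKM as deposited (0.78), with the gene length trend removed (0.71), with a pseudocount of 0.1 (1.07) and without a filter on low reads (1.07), so that it passed in 8 of 16 alternative fits. Mup2 also missed them without that filter (2.70). Mup21 passed them in each of the 16 alternative fits, with log2 fold changes of 2.03 to 2.81.

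The second table divided its Mup reads very differently. Whether it was made from the same reads as the Ribo-seq table is not known from the sources used here. When each of its libraries was set beside the Ribo-seq library it matched, the 22 Mup genes together had 0.976 to 1.00 times as many reads. All genes except Lars2 had 1.07 to 1.25 times as many. Lars2, a mitochondrial tRNA synthetase gene, is named because it took 6.68% to 15.0% of this table in HFD and 35.9% to 40.3% in LYC. Mup2, however, had only 0.167 to 0.303 times its Ribo-seq reads, and Mup1 had 21.5 to 238 times as many. Ratios of the other near-identical members lay at 15.0 to 47.2 for Mup7, 17.9 to 48.6 for Mup17, 3.41 to 17.4 for Mup11, 2.17 to 13.6 for Mup19 and 0.290 to 0.486 for Mup10. Among the genes with their own sequence, the ratio was 1.26 to 1.56 for Mup3, 0.361 to 0.496 for Mup20 and 0.240 to 0.300 for Mup21. By sequence group, the 16 genes near Mup2 had 1.05 to 1.31 times and Mup3, Mup20 and Mup21 together 0.511 to 0.627 times their Ribo-seq reads. The 10 members together had 0.575 to 0.678 times their Ribo-seq reads. The total over 22 genes was therefore nearly the same in both tables, the sum over the 10 members was not, and the reads of single members differed by up to 238-fold.

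**Figure D3:**
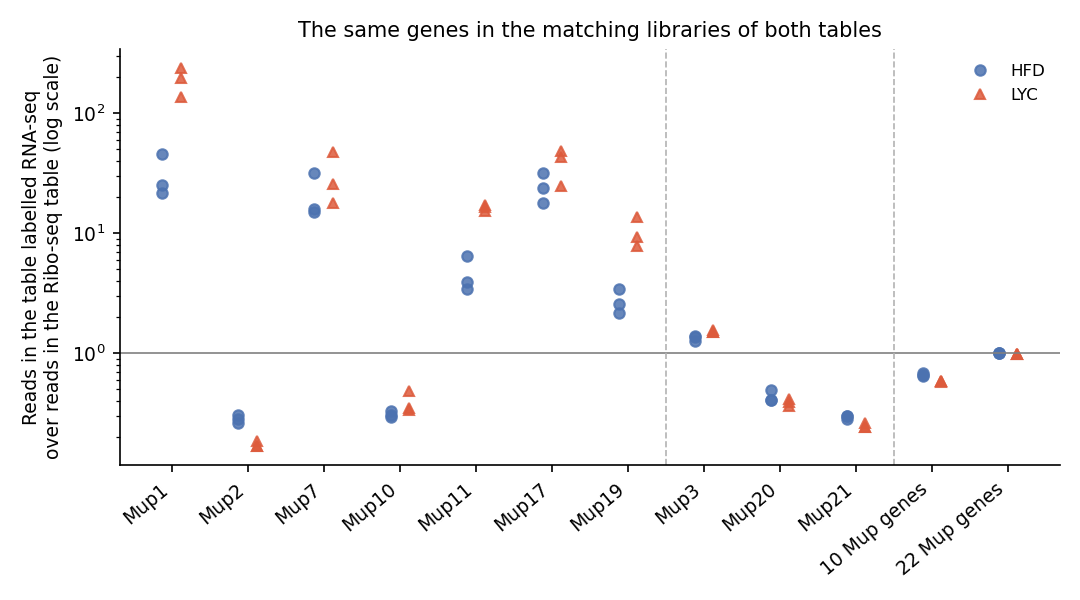
Reads in the table labelled RNA-seq over reads in the matching library of the Ribo-seq table (log axis) for each member, for the 10 MUP genes summed and for all 22 Mup genes summed. Circles are HFD and triangles LYC libraries, and the horizontal line marks equal reads. The sum over 22 genes lies at 0.976 to 1.00 in all 6 libraries, whereas Mup1 reaches 238.

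In this table the 7 genes near Mup2 were nearly level. Their HFD means ran from 1602 RPKM for Mup17 to 4557 RPKM for Mup2, a 2.85-fold range, where the Ribo-seq table spread the same genes over a 215-fold range. In LYC the ranges were 3.75-fold and 1021-fold. Mup2 had 2315, 4260 and 7095 RPKM in HFD and 11989, 6753 and 6314 RPKM in LYC here, and Mup1 had 1979, 3746 and 6452 RPKM in HFD and 11946, 5981 and 6099 RPKM in LYC. The 2 genes thus had almost equal values in this table, although Mup2 was 106-fold above Mup1 in HFD in the other.

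**Figure D4:**
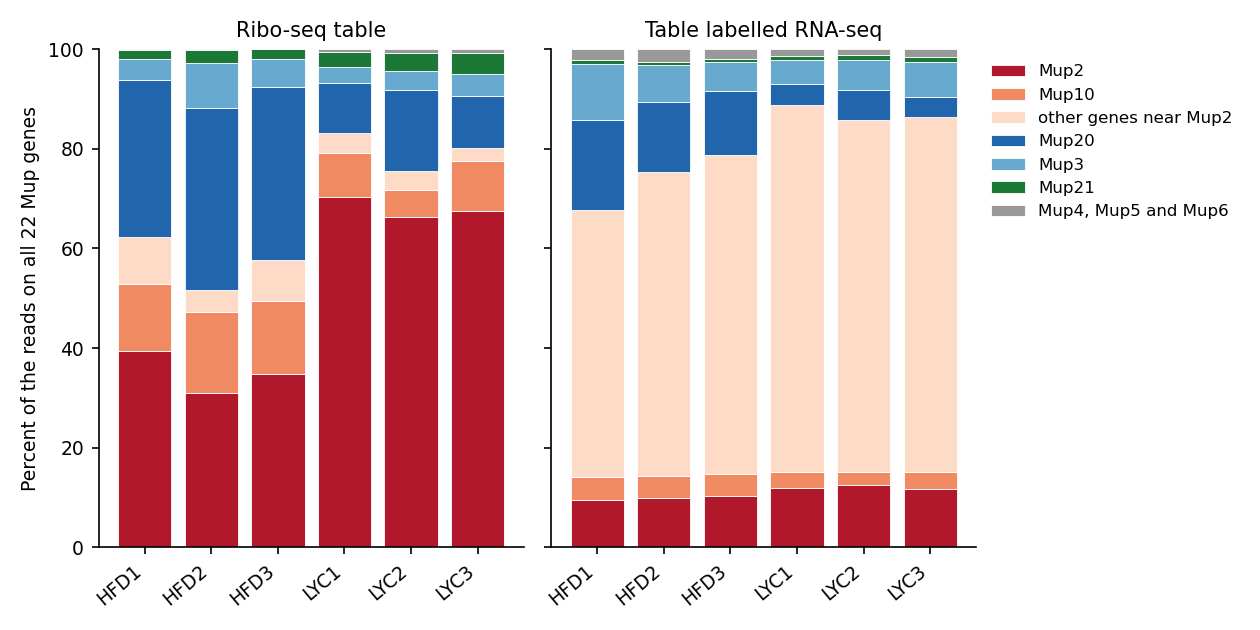
Percent of the reads on all 22 Mup genes (y axis) that each table assigns to Mup2, Mup10, the other 14 genes near Mup2, Mup20, Mup3, Mup21, and to Mup4, Mup5 and Mup6 together, in each library (x axis). In the Ribo-seq table Mup2 takes 31.1% to 39.4% in HFD and 66.4% to 70.4% in LYC, and in the table labelled RNA-seq 9.40% to 12.4% throughout.

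The log2 fold changes of the near-identical members depended on the table as well. In the table labelled RNA-seq, edgeR's quasi-likelihood fit on counts gave 1.16 to 2.07 for the 7 genes near Mup2, with Mup10 lowest and Mup17 highest, against −0.57 to 2.70 in the Ribo-seq table. Mup1 turned from −0.57 ± 0.75 to 2.05 ± 0.51 (SE), Mup11 from 0.06 ± 0.40 to 1.90 ± 0.46 (SE) and Mup19 from 0.17 ± 0.65 to 1.99 ± 0.47 (SE). Mup2, Mup17, Mup7 and Mup10 moved less, by 0.76, 0.59, 0.39 and 0.32 in absolute terms. The members with sequence of their own differed by somewhat less again, Mup21 by 0.25, Mup3 by 0.24 and Mup20 by 0.13. This did not hold for Mup6, a gene with own sequence outside the 10 members, at 5.35 ± 0.48 and 2.13 ± 0.42 (SE). Mup21 had 2.46 ± 0.40 and 2.22 ± 0.34 (SE), Mup3 had 1.07 ± 0.33 and 1.31 ± 0.36 (SE), and Mup20 had 0.21 ± 0.49 and 0.08 ± 0.41 (SE). There, 8 of the 10 members, all except Mup10 and Mup20, passed the limits as higher, in a table where 9.31% of its 5921 genes tested were called higher and 7.33% lower. Mup3 and Mup7 missed the limits there without HFD1 (log2 fold changes of 1.11 and 1.24) and without HFD2 (1.25 and 1.63). Without LYC1 they were missed by Mup1 (1.54), Mup2 (1.49), Mup3 (1.07) and Mup7 (1.17). Mup10 passed them in 3 of 11 alternative fits, without a filter on low counts (1.16), without HFD3 (1.67) and without LYC2 (1.41). With total counts as library size, which lowered the median of all genes by 1.08 on the log2 scale, Mup20 had a log2 fold change of −0.995, and of the 8 members called only Mup21 still passed the limits (1.15).

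**Figure D5:**
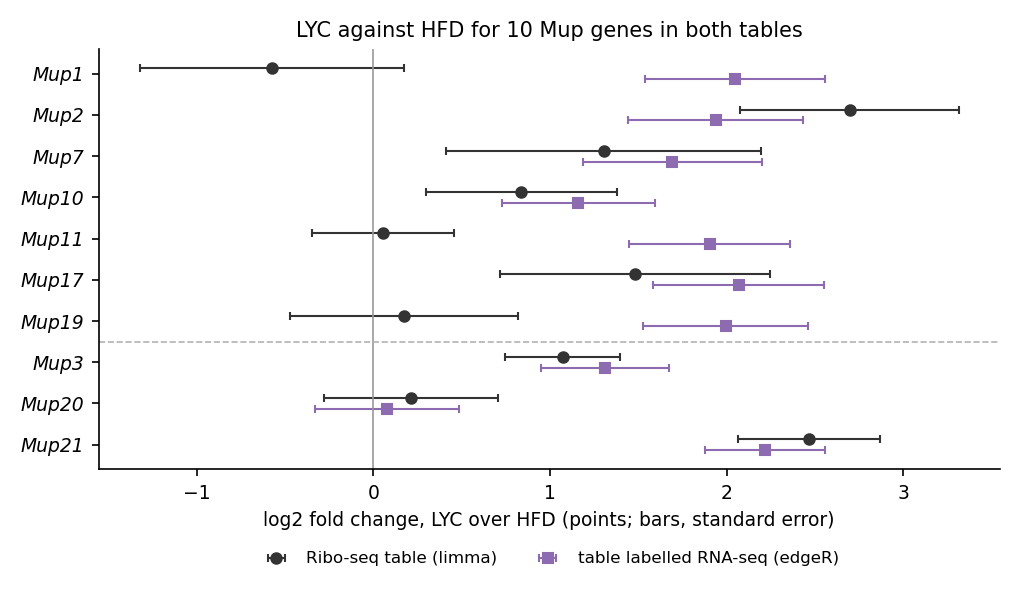
Log2 fold change of LYC over HFD (x axis, bars are standard errors) for each member in the Ribo-seq table (circles, limma) and in the table labelled RNA-seq (squares, edgeR). The dashed line separates the 7 genes near Mup2 (top) from Mup3, Mup20 and Mup21, for which the 2 tables lie within 0.25 of each other.

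The mean sum of the 10 members was higher in LYC in both tables. After TMM scaling the log2 difference was 1.68 in the Ribo-seq table and 1.56 in the other, and as deposited it was 1.40 and 0.49. In the table labelled RNA-seq the 10 genes summed to 16177, 26476 and 41474 RPKM in HFD and to 55835, 31195 and 30969 RPKM in LYC as deposited, which overlapped. The sums did not overlap after TMM scaling.

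Of the 12 other Mup genes, 5 passed the filter in the Ribo-seq table. Mup6, on the plus strand and with 84.0% own windows, had 40.8, 13.5 and 11.1 RPKM in HFD and 770, 714 and 503 RPKM in LYC, a log2 fold change of 5.35 ± 0.48 (SE). In the table labelled RNA-seq its values were 76.7, 155 and 231 RPKM in HFD and 478, 210 and 271 RPKM in LYC. The log2 fold change there was 2.13 ± 0.42 (SE). Mup9, with 0 own windows, had 7.49, 0.515 and 0 RPKM in HFD and 48.9, 36.5 and 22.01 RPKM in LYC, on at most 18 reads per library. Mup15, also without own windows, had 601, 56.2 and 158 RPKM in HFD and 14.3, 3.62 and 10.9 RPKM in LYC, the latter on 5, 1 and 4 reads. In the other table Mup15 had 893, 1856 and 3100 RPKM in HFD and 4387, 2434 and 2308 RPKM in LYC. Mup6, Mup9 and Mup15 reached the reads that the filter asks for in 3 libraries only through the group in which they were high, so their passing the call limits is no test. Mup12 and Mup14 overlapped between groups in the Ribo-seq table, with log2 fold changes of 1.50 ± 0.81 and 0.75 ± 0.75 (SE).

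Regulators of the Mup genes were looked at next, as a list of 20 genes of growth hormone signalling and liver transcription factors, of which 16 were tested. None passed the limits as higher and 2 passed them as lower in limma, edgeR and DESeq2 alike, against 6.89% and 6.37% of all genes. In limma 5 had an unadjusted p below 0.05, as did 29.9% of all genes tested, and the median log2 fold change was −0.63 against −0.10 for all genes. The 2 genes were Foxa2 and Nr1h3. Foxa2, a forkhead factor of hepatocytes, had 15.5 ± 3.97 RPKM in HFD and 3.95 ± 1.90 RPKM in LYC (SD, n = 3). Nr1h3, which encodes the oxysterol receptor LXR alpha, had 42.4 ± 7.32 RPKM in HFD and 11.5 ± 5.87 RPKM in LYC (SD, n = 3). Both passed the filter through HFD, with 0 and 1 of the 3 LYC libraries at the level it asks for, and Foxa2 had 3, 4 and 2 reads in LYC, so their passing the limits is no test either. The growth hormone receptor gene Ghr had 100.2, 130.4 and 92.5 RPKM in HFD and 59.5, 69.1 and 66.7 RPKM in LYC, and was not called, at a log2 fold change of −0.42 ± 0.21 (SE). Jak2, its kinase, and Stat5a, a transcription factor downstream, were not called either, at −0.29 ± 0.40 and −0.77 ± 0.39 (SE). In LYC Jak2 had only 5, 2 and 9 reads and Stat5a 1, 3 and 5. Ghr and Stat5a were lower in LYC without overlap after TMM scaling, as were 19.2% of all genes tested, whereas Jak2 overlapped.

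MUPs are a classic example of male-biased liver genes, so other genes of this pattern were set beside them. Of 23 male-biased genes listed, 17 were tested, 0 were called higher and 3 were called lower, where the shares over all genes were 6.89% and 6.37%. The list had a median of 0.44 on the log2 scale, 10 of 17 genes above 0, and 7 at an unadjusted p below 0.05 in limma, against 29.9% of all genes. On the recovered reads, edgeR and DESeq2 each called 1 higher and 3 lower. Elovl3, a fatty acid elongase, fell from 149 ± 48.7 to 33.1 ± 7.86 RPKM (SD, n = 3), with a Benjamini-Hochberg adjusted p of 0.0182 in limma. Cyp8b1, the sterol 12-alpha-hydroxylase of bile acid synthesis, fell from 227 ± 63.2 to 73.1 ± 26.6 RPKM (SD, n = 3), with a limma adjusted p of 0.0304. Cyp2u1, a fatty acid hydroxylase, fell from 34.3 ± 5.82 to 10.2 ± 3.84 RPKM (SD, n = 3), with a limma adjusted p of 0.0220. The cytochrome genes Cyp2d9, Cyp7b1 and Cyp4a12a were not called, at log2 fold changes of 0.80 ± 0.32, −0.28 ± 0.53 and 0.99 ± 0.30 (SE). Slco1a1 was not called either, at 1.11 ± 0.44 (SE). Even so, Cyp2d9, Cyp4a12a and Slco1a1 were higher in LYC without overlap after TMM scaling. The 3 called genes were lower without overlap, where 18.5% of all genes tested were higher and 19.2% lower in this way. Of 30 female-biased genes, 8 were at 0 in every library and 7 were tested. None of these passed the limits in limma, edgeR or DESeq2, and 2 had an unadjusted p below 0.05 in limma, against the same 29.9%. Their median was 0.66 on the log2 scale, with 5 of 7 above 0. Cyp2a4, Cyp2b9 and Cyp2b13 did not pass the filter. Cyp2b9 had 16, 177 and 9 reads in HFD and Cyp2b13 had 2, 64 and 4, while both were at 0 reads in every LYC library. Cyp2a4 had 9 reads in HFD2 and 0 in the other libraries. These genes are not part of the positive median, and the LYC libraries were shallower, as given above.

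Markers of sex were read in the same way, since all animals were labelled male. Xist, the RNA that silences an X chromosome in female cells, had at most 0.179 RPKM in any library. Of the Y-linked genes Ddx3y, Eif2s3y, Uty and Kdm5d, all except Kdm5d were tested. These 3 had log2 fold changes of 1.33, 0.88 and 0.97, each above 0 at an unadjusted p below 0.05 in limma and without overlap of the groups after TMM scaling. Over all genes 29.9% had such a p in either direction, and 18.5% were higher without overlap. Ddx3y, which encodes an RNA helicase, was called higher, at 12.9 ± 4.61 RPKM in HFD and 27.9 ± 9.69 RPKM in LYC (SD, n = 3, limma adjusted p = 0.0365), against 6.89% of all genes called higher. The part of this difference in the MUP values was not tested.

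Other lipocalins and secreted proteins of the liver were set beside the MUPs. Of 15 other lipocalin genes 5 were tested, 1 was called higher and 0 lower, against 6.89% and 6.37% of all genes. The called gene was Orm1, an acute-phase plasma protein gene, at 254 ± 7.40 RPKM in HFD and 459 ± 72.1 RPKM in LYC (SD, n = 3, limma adjusted p = 0.0304). The retinol carrier gene Rbp4 had 1782 ± 233 and 1824 ± 449 RPKM (SD, n = 3), and Ambp and Apom were not called, at log2 fold changes of −0.36 ± 0.23 and 0.26 ± 0.31 (SE). Of 22 genes of abundant liver proteins, of plasma except for the cytosolic Fabp1, all were tested, 0 were called higher and 1 lower, against 6.89% and 6.37% of all genes. The median was −0.44 on the log2 scale, and 4 were at an unadjusted p below 0.05 in limma, against 29.9% of all genes. On the recovered reads edgeR and DESeq2 gave the same numbers. The 1 gene was Hpx, which encodes the haem carrier hemopexin and fell from 2315 ± 302 to 769 ± 84.3 RPKM (SD, n = 3, limma adjusted p = 0.0127). Albumin (Alb) had 27134 ± 2191 RPKM in HFD and 17046 ± 4777 RPKM in LYC (SD, n = 3). Mup2 was thus below Alb in HFD2 and HFD3 and above it in HFD1 and in all LYC libraries. Ttr and Apoa1, genes of transthyretin and apolipoprotein A-I, had log2 fold changes of −0.03 ± 0.27 and 0.60 ± 0.30 (SE) and were not called. Of the 9 hepatocyte markers, 4 had a positive and 5 a negative log2 fold change, with a median of −0.03. Of these markers, 2 were called higher and 0 lower, against 6.89% and 6.37% of all genes. They were Tat and Cps1, enzymes of amino acid breakdown and of the urea cycle. Their log2 fold changes were 1.55 ± 0.32 and 1.07 ± 0.31 (SE), with limma adjusted p of 0.0193 and 0.0568.

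The genes whose 6 library values were most like those of Mup2 and Mup20 were sought among 5743 tested genes without a Mup number, by the root mean square difference of centred log2 values. For Mup2 these were Snora74a (0.26), Gm20594 (0.41), Scarna13 (0.44), Gm2083 (0.48) and Atp5j (0.49). Snora74a and Scarna13 are small non-coding RNA genes, whose share of the reads was higher in LYC as given above, and RefSeq lists Gm2083 as an older name of Mup13. The Ribo-seq table lists Gm2083 apart from Mup13, at 356, 44.6 and 166 RPKM in HFD and 1266, 354 and 518 RPKM in LYC. Sums and shares over the 22 Mup genes or the 16 near Mup2 leave it out. For Mup20 they were Cyp4a12b (0.19), Adh6-ps1 (0.26), C6 (0.29), Tmed9 (0.30) and Tmem38b (0.30). Cyp4a12b and the complement gene C6 are also in the list of male-biased genes. Cyp4a12b had 125.7, 52.5 and 81.1 RPKM in HFD and 66.7, 81.9 and 49.6 RPKM in LYC, so that like Mup20 it was highest in HFD1 and lowest in LYC3 as deposited. After TMM scaling both genes were highest in HFD1 and lowest in HFD2.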

How the data were processed

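Ribo-seq and RNA-seq libraries of liver, 3 per group and assay and 12 in all, were taken from the deposited data. The authors deposited RPKM values of the Ribo-seq libraries, and a second table of read counts with RPKM for those labelled RNA-seq. The submitters' processing notes name cutadapt, Bowtie2 and mm10, and the study's methods add STAR and FANSE2. Versions, the annotation and the handling of reads that match several genes are not given in the sources used here. The labels state pooling of the groups' RNA or footprints before library construction, whereas the titles give each library of an assay its own code, shared with 1 library of the other assay, so the spread between libraries may in part be technical.

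Ribo-seq reads were recovered from the steps between RPKM values, which the gene length of the second table made whole (within 0.02 of a read) for 11129 genes, and a fitted length for 4620. With the lengths of that table, between 71.9% and 72.4% of each library's values above 0 came out whole. For the Ribo-seq table, log2(RPKM + 1) after TMM scaling was fitted with limma 3.58.1, and the counts of the second table with edgeR 4.0.16 and TMM. Tests on recovered reads with edgeR and DESeq2 1.42.0 were alternatives. Low genes were removed with edgeR's filterByExpr. Calls used p below 0.01, the limit in the study's results text, whereas its methods give p below 0.001, which was an alternative. All fits ran over all genes left by the filter, except the alternatives without a filter. The tools limma, edgeR and DESeq2 were tested on simulated data. Standard errors of edgeR came from its F statistic. Of the Ribo-seq entries, 4 that shared a name were left out. Intervals were not computed for counts.

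The MUP genes, gene lists and tests were chosen with earlier results of these data known. Genes named were the members, called genes and the first 3 of each list, called markers, called Mup genes, and the 5 genes most like Mup2 and Mup20. Called or tested markers, Slco1a1 and Lars2 were named after their values were seen. The grouping by 98% identity to Mup2 was made after the data were examined. Sequences came from RefSeq on GRCm38, and 1 transcript per gene was used, read with biopython 1.88.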

Additional observations from a re-analysis of the deposited data

How the results depend on the processing

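Among all genes of the Ribo-seq table, 397 were called higher and 367 lower, and these counts depended on scaling and limits. They became 235 and 648 with RPKM as deposited, 260 and 118 with a pseudocount of 10, and 192 and 101 at p below 0.001, and without a filter 718 were called lower. Leaving out 1 library gave 142 to 702 lower and 268 to 570 higher. RPKM as deposited lowered the median over all genes by 0.26 on the log2 scale. In the table labelled RNA-seq, 551 were called higher and 434 lower, which became 134 and 2760 with total counts as library size and 856 and 671 without a filter. The cause of these shifts was not tested. The numbers of the labels do not pair the mice, as same-numbered libraries deviated together with r of 0.108, 0.0252 and 0.00678 in Ribo-seq. With the replicate block 394 and 353 genes were called in the Ribo-seq table and 486 and 373 in the other.

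The log2 difference of the sum of the 10 MUP genes was 1.68 in the Ribo-seq table. It was 1.40 with RPKM as deposited and 1.47 as a share of reads without small non-coding RNA. It was 0.63 without Mup2 and 0.57 over Mup3, Mup20 and Mup21 alone, and 1.22 to 2.20 without 1 library. In the other table it was 1.56, and 1.47 without Mup2, 0.49 with RPKM as deposited, 0.62 as a share of reads without small non-coding RNA, 0.70 over Mup3, Mup20 and Mup21, and 1.11 to 2.06 without 1 library. As a share without Lars2 as well it was 1.29. The sums by sequence and the share without Lars2 were chosen after seeing the data. Over the 16 alternatives of the Ribo-seq table Mup2 kept a log2 fold change of 2.096 to 3.202 and passed the limits in 14, missing them without a filter and without LYC1. Mup3 passed them in 8, at 0.71 to 1.24. Mup1 (−1.46 to 0.00), Mup11 (−0.36 to 0.26), Mup19 (−0.58 to 0.79) and Mup20 (−0.25 to 0.57) changed sign, and passed the limits in none. Mup7 (0.25 to 1.97), Mup10 (0.38 to 1.28) and Mup17 (0.70 to 2.18) stayed above 0. Mup1, Mup7 and Mup17 rested on the fewest reads in LYC2, and Mup7 and Mup17 moved most with HFD2 left out. Whether depth limits them was not tested.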
